A study of Mus musculus with 11 samples.

Results

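The genes described here are the mouse conjugating enzymes of drug and hormone metabolism whose symbols begin with Gst or Mgst (glutathione transferases), Sult (sulfotransferases) or Ugt (glucuronosyltransferases). A gene was taken when at least 1 probe set of the array carried its symbol and no other, and for a gene with several such probe sets the one with the highest mean was used. That gave 48 genes of 19938 named in this way, of which 22 were glutathione transferases, 16 sulfotransferases and 10 glucuronosyltransferases. The rule used symbols and mean signal and no measured difference, but it was set with earlier results of these data known.

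Phase II enzymes attach a polar group to drugs, hormones, bile acids and reactive products, which makes them easier to excrete. Glutathione transferases add glutathione to electrophiles such as the products of lipid peroxidation. Sulfotransferases move sulfate from the donor PAPS to hydroxyl groups of steroids, bile acids, thyroid hormone and phenols, and glucuronosyltransferases add a sugar acid from UDP-glucuronate. The liver is a main site of all of these reactions, and many of the genes are known targets of the stress regulator NRF2 (Nfe2l2) or of ligand-activated receptors.

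Gene expression was measured in whole liver of male C57/BL6 mice on chow, aged 8 to 9 weeks. The Nemo KO group (3 arrays) lacked Nemo in hepatocytes through a loxP-flanked gene, where Nemo, encoded by Ikbkg, is the subunit that regulates IκB kinase. The Nemo/TRAIL dKO group (2 arrays) carried the same deletion and lacked the death ligand TRAIL in the whole body, and the Nemo/TNFR1 dKO group (3 arrays) carried it and lacked the tumour necrosis factor receptor TNFR1 in the whole body. The WT group (3 arrays) was wild type. The Cre line, the deleted parts of the genes and whether each array is 1 animal are not stated in the labels. The p-values reflect no more than the spread among these arrays, whose small number limits precision.

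Each of 35556 probe sets had a log2 expression value on each of the 11 arrays, and differences are given on that log2 scale. They were tested with limma in 1 fit to all arrays, with Benjamini-Hochberg adjustment over all probe sets of a comparison. A gene was called at an adjusted p below 0.05. The 3 comparisons with WT share the same WT arrays, so their results are not independent of each other. Array names follow genotype, with 1 code for WT and Nemo KO and another in each double knockout, so that an effect of what the code stands for cannot be told apart from that of the added knockout.

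Ikbkg averaged 8.42 in Nemo KO livers, 8.25 in Nemo/TRAIL dKO livers and 8.21 in Nemo/TNFR1 dKO livers, against 8.66 in WT livers, Tnfsf10 (TRAIL) averaged 6.54, 6.17 and 6.66 against 6.82, and Tnfrsf1a (TNFR1) averaged 10.33, 10.41 and 10.06 against 9.99. These probe sets check a label only where they lie in the deleted part. WT replicate 3 stood apart in 8 pancreatic acinar markers, whose mean was 10.83 there and between 5.10 and 5.54 on the other arrays. The hepatocyte markers were bright on every array, with a mean of 10 markers between 13.24 and 13.31 in the Nemo-deficient groups and between 13.31 and 13.33 in WT, and 1 of the 10, F2, was called lower in Nemo KO. All 8 macrophage markers and all 8 markers of stellate cells and fibroblasts were called higher in Nemo KO than in WT. The 6 proliferation markers were as well. In that comparison 0 of 6 cholangiocyte, 0 of 4 neutrophil, 0 of 3 B cell, 0 of 5 endothelial and 1 of 6 T and NK cell markers were called. In Nemo/TRAIL dKO 1 cholangiocyte, 1 T and NK cell and 2 endothelial markers were called higher and 1 endothelial marker lower. In Nemo/TNFR1 dKO 1 cholangiocyte, 3 T and NK cell and 1 endothelial marker were called higher. The cholangiocyte mean ran from 6.48 to 6.60 in Nemo KO livers, against 5.91 to 6.21 in WT. That of T and NK cells ran from 5.54 to 5.76, against 5.34 to 5.42. The macrophage mean ran from 8.44 to 8.73 in Nemo KO livers, 8.71 to 8.77 in Nemo/TRAIL dKO livers and 8.31 to 8.72 in Nemo/TNFR1 dKO, against 6.82 to 6.93 in WT, and the stellate and fibroblast mean from 9.26 to 9.49, 9.07 to 9.25 and 8.98 to 9.53, against 7.94 to 8.22. Their part in the differences below was not tested. In whole liver, fewer cells of a type and less RNA per cell cannot be told apart.

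A small number of the transferase genes changed, in both directions. In Nemo KO livers 9 of 48 genes were called against WT, 3 higher and 6 lower, which is 18.8% against 9.29% of all probe sets (6.08% higher and 3.21% lower). The mu-class glutathione transferases Gstm3 and Gstm2 and the estrogen sulfotransferase Sult1e1 were higher. The omega-class Gsto1, the sulfotransferases Sult5a1, Sult2a8 and Sult1b1 and the glucuronosyltransferases Ugt2a3 and Ugt2b1 were lower. In Nemo/TRAIL dKO livers 7 of 48 genes were called against WT, 3 higher and 4 lower, against 7.55% of all probe sets (4.91% higher and 2.64% lower). In Nemo/TNFR1 dKO livers 7 of 48 were called, 3 higher and 4 lower, against 9.18% (5.83% higher and 3.35% lower). Over the 19938 genes named in the same way as the members, the called shares were higher than over all probe sets, at 12.6% in Nemo KO livers, 10.2% in Nemo/TRAIL dKO livers and 12.1% in Nemo/TNFR1 dKO livers, beside 14.6% of the members in each double knockout; the share in Nemo/TNFR1 dKO livers lay near this background. Without WT replicate 1, WT replicate 3 or Nemo KO replicate 3 the Nemo KO count was 5, and without replicate 1 or replicate 2 of Nemo/TRAIL dKO the count of that group was 4. Counts over all probe sets in those fits are not given here. With all arrays, the median difference of the 48 genes from WT lay near that of all probe sets. It was -0.10 beside -0.05 in Nemo KO livers, -0.07 beside -0.05 in Nemo/TRAIL dKO livers and -0.06 beside -0.04 in Nemo/TNFR1 dKO livers.

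Levels differed between the families as well as within them. On the arrays as a whole, 10 of 16 sulfotransferases, 3 of 22 glutathione transferases and 0 of 10 glucuronosyltransferases lay below the median signal of all probe sets, which was 6.29. The probe set means ran from 4.68 to 13.29 for glutathione transferases, from 2.87 to 10.80 for sulfotransferases and from 8.85 to 12.29 for glucuronosyltransferases, where the highest were those of Gstp1, Sult2a8 and Ugt2b36. Such signals depend on the probes and give no order of the transcripts' amounts. A change in a gene near the background signal, Sult1e1 among those called, can be understated on the log2 scale.

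Upstream sequence is shown for 6 genes because neighbours of 1 gene cluster, or genes with opposite differences, can be read side by side. The bases are the 150 before the start of transcription, 5′ to 3′ on the strand of the gene, from RefSeq on GRCm38.p6. Gstm3, Gstm2 and Gstm1 are neighbours on chromosome 3 of which the first and second were called. Gsta3, an alpha-class glutathione transferase that was not called, is the example with the core of the antioxidant response element, and Sult5a1 and Ugt2a3 were lower. Capitals mark the core TGACNNNGC of that element, the kind of site that NRF2 binds, or the core GCGTG of the element bound by the aryl hydrocarbon receptor.
Gstm3 (chr3:107969175-107969324, minus strand): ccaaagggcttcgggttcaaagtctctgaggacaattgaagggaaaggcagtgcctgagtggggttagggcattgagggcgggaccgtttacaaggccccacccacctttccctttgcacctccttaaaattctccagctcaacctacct
Gstm2 (chr3:107986421-107986570, minus strand): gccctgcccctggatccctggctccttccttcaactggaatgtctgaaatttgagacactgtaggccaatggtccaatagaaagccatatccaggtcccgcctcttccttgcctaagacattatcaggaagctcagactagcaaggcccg
Gstm1 (chr3:108017974-108018123, minus strand): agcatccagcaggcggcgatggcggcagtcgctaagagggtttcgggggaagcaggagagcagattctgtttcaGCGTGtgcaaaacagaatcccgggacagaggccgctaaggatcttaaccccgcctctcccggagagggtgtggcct
Gsta3 (chr1:21240435-21240584, plus strand): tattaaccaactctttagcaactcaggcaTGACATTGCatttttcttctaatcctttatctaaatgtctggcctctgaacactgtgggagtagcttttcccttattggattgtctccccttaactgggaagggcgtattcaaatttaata
Sult5a1 (chr8:123158281-123158430, minus strand): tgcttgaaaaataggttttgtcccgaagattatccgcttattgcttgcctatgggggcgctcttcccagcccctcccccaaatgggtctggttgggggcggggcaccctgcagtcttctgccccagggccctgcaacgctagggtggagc
Ugt2a3 (chr5:87337196-87337345, minus strand): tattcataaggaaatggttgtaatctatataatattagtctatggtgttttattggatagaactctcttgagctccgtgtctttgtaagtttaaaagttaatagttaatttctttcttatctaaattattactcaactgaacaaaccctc

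In windows from 250 bases before to 50 after the start, searched on both strands, TGACNNNGC was present in 12.4% of 32851 windows of all genes. It was present in 4 of 29 windows of glutathione transferases (13.8%), those of Gsta3, Gstm5, Gstm7 and Mgst1, in 0 of 18 of sulfotransferases and in 0 of 9 of glucuronosyltransferases. GCGTG was present in 32.4% of all windows, in 6 of 29 of glutathione transferases (20.7%), in 4 of 18 of sulfotransferases (22.2%) and in 0 of 9 of glucuronosyltransferases. Of the 10 genes called in any comparison, 9 had a window, of which 0 held TGACNNNGC and 1, that of Sult1b1, held GCGTG. The printed sequences of Gstm3 and Gstm2 hold neither. A match describes these letters only, and its absence speaks only of this window.

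Among the 7 mu-class glutathione transferases, Gstm3 and Gstm2 rose in livers without hepatocyte Nemo and the other 5 passed no test. Gstm3 had 13.06, 13.20 and 13.20 in Nemo KO livers, 13.06 and 13.14 in Nemo/TRAIL dKO livers and 12.91, 13.21 and 13.06 in Nemo/TNFR1 dKO livers, against 11.80, 11.92 and 11.81 in WT livers. All 8 Nemo-deficient arrays lay above every WT array by more than the spread within any group. In Nemo KO it was 2.48-fold higher than in WT (difference 1.31 ± 0.09 SE, adjusted p = 0.000197), and the differences were 1.25 ± 0.10 in Nemo/TRAIL dKO (adjusted p = 0.000383) and 1.22 ± 0.09 in Nemo/TNFR1 dKO (adjusted p = 0.000134). A second, less bright probe set of Gstm3 gave larger differences from WT. They were 1.82 ± 0.12 in Nemo KO (adjusted p = 0.000215), 1.72 ± 0.14 in Nemo/TRAIL dKO (adjusted p = 0.00042) and 1.69 ± 0.12 in Nemo/TNFR1 dKO (adjusted p = 0.000147). The size of the rise thus depended on the probe set. The brighter one had the same value, 13.06, on 3 arrays of 3 groups.

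Gstm2, another mu-class enzyme, rose less. Its values were 10.51, 10.48 and 10.70 in Nemo KO livers, 10.68 and 10.96 in Nemo/TRAIL dKO livers and 10.84, 10.80 and 10.63 in Nemo/TNFR1 dKO livers, against 10.16, 10.15 and 10.14 in WT livers. The WT arrays were close together and below all others. The differences from WT were 0.42 ± 0.09 in Nemo KO (adjusted p = 0.0234), 0.67 ± 0.11 in Nemo/TRAIL dKO (adjusted p = 0.00567) and 0.61 ± 0.09 in Nemo/TNFR1 dKO (adjusted p = 0.00398). The Nemo KO call was lost without WT replicate 1, 2 or 3 or Nemo KO replicate 3, with an adjusted p of at most 0.0894, and the other calls held without any 1 array.

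Gsta4, which conjugates the lipid peroxidation product 4-hydroxynonenal, was called in both double knockouts but not in Nemo KO. It had 9.82, 10.17 and 10.15 in Nemo KO livers, 10.36 and 10.46 in Nemo/TRAIL dKO livers and 10.38, 10.45 and 10.34 in Nemo/TNFR1 dKO livers, against 9.71, 9.99 and 9.57 in WT livers. The Nemo KO range overlapped that of WT, and both double knockouts lay above both. Its differences from WT were 0.29 ± 0.12 in Nemo KO (adjusted p = 0.179), 0.66 ± 0.14 in Nemo/TRAIL dKO (adjusted p = 0.0187) and 0.63 ± 0.12 in Nemo/TNFR1 dKO (adjusted p = 0.0117). Set directly against Nemo KO, it did not pass the test in Nemo/TRAIL dKO (0.37, 95% interval 0.06 to 0.67, adjusted p = 1) or in Nemo/TNFR1 dKO (0.34, 95% interval 0.07 to 0.62, adjusted p = 0.65). The Nemo/TRAIL dKO call was lost without WT replicate 1 or either array of that group (adjusted p up to 0.115).

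Gsto1, an omega-class enzyme that reduces dehydroascorbate, moved the other way. It had 9.16, 9.26 and 9.26 in Nemo KO livers, 9.20 and 9.43 in Nemo/TRAIL dKO livers and 9.80, 9.50 and 9.31 in Nemo/TNFR1 dKO livers, against 9.93, 9.83 and 9.86 in WT livers. Nemo/TNFR1 dKO replicate 1 came closest to the WT arrays without reaching them. The differences from WT were -0.65 ± 0.12 in Nemo KO (adjusted p = 0.0087), -0.56 ± 0.13 in Nemo/TRAIL dKO (adjusted p = 0.0327) and -0.33 ± 0.12 in Nemo/TNFR1 dKO (adjusted p = 0.12). The Nemo KO call held without any 1 array, while that of Nemo/TRAIL dKO was lost without any of 7 arrays (each WT array, Nemo KO replicate 2 or 3, or either Nemo/TRAIL dKO array), with an adjusted p of at most 0.234.

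**Figure D1:**
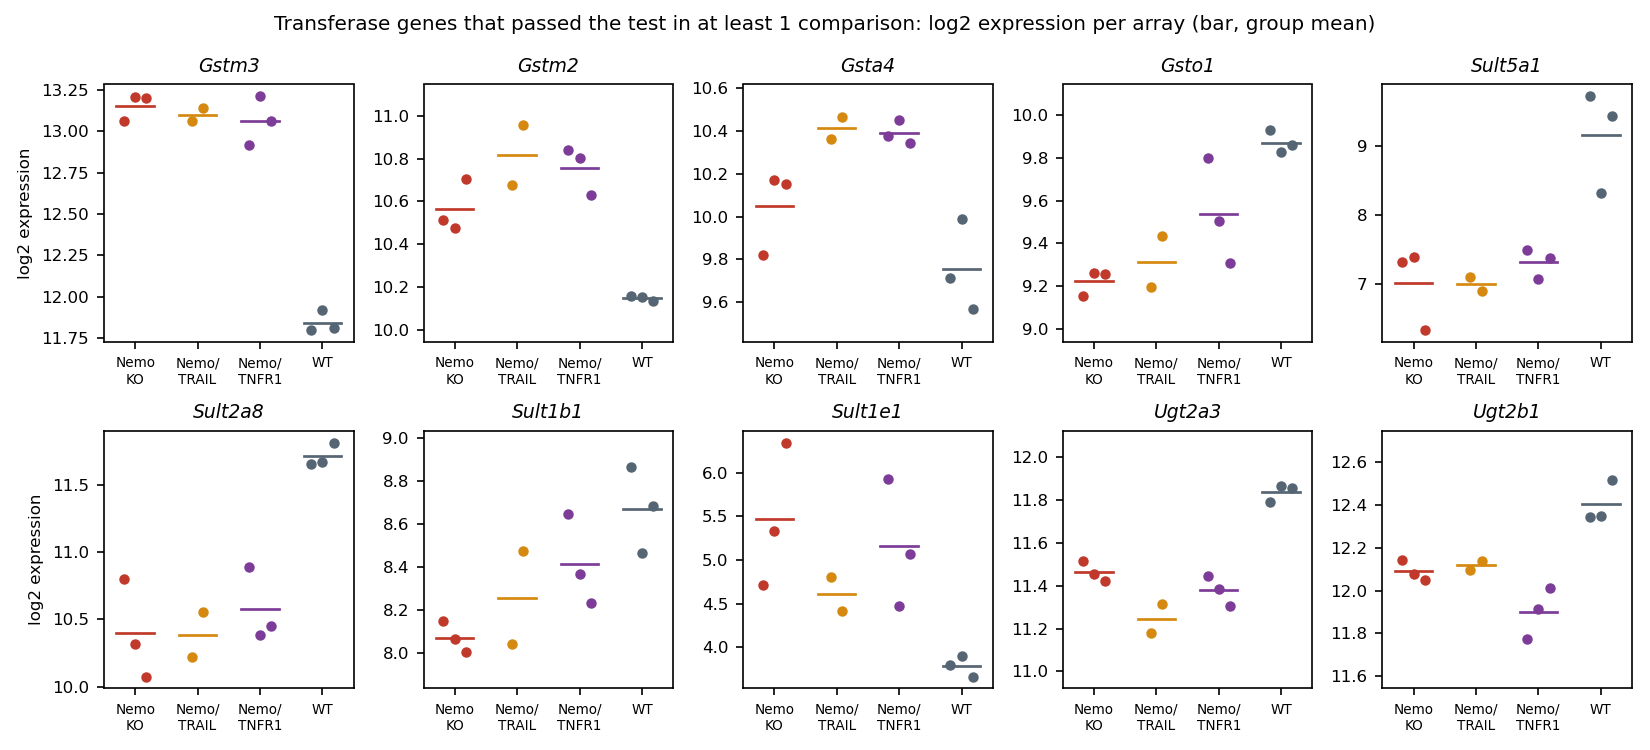
Log2 expression on each array (points, with a bar at the group mean) of the 10 transferase genes called in at least 1 comparison, with Nemo KO, Nemo/TRAIL dKO, Nemo/TNFR1 dKO and WT from left to right. Gstm3 lay between 12.91 and 13.21 on all Nemo-deficient arrays and between 11.80 and 11.92 in WT, and Sult5a1 and Sult2a8 lay lower on all Nemo-deficient arrays than in WT.

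The remaining 18 glutathione transferases passed no test in any comparison. Gstm1, next to Gstm2 on chromosome 3, had 13.08, 13.05 and 13.12 in Nemo KO livers, against 12.79, 12.90 and 12.83 in WT livers. These did not overlap, but the difference of 0.24 ± 0.07 had an adjusted p of 0.0502. Along the chromosome the order was Gstm5, Gstm7, Gstm6, Gstm3, Gstm2, Gstm1 and Gstm4, with Nemo KO differences from WT of 0.12, -0.14, 0.06, 1.31, 0.42, 0.24 and 0.16. Gstm3 and Gstm2 were thus neighbours. Mu-class genes are close copies of each other, so their probes may share signal, which was not tested.

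Gstp1, the pi-class enzyme and the brightest member, had 13.19, 13.36 and 13.33 in Nemo KO livers, 13.31 and 13.22 in Nemo/TRAIL dKO livers and 12.98, 13.34 and 13.29 in Nemo/TNFR1 dKO livers, against 13.42, 13.35 and 13.44 in WT livers. Its differences from WT were -0.11, -0.13 and -0.20, with adjusted p from 0.266 to 0.55. Mgst3, a membrane-bound glutathione transferase, differed from WT by 0.25 in Nemo KO (adjusted p = 0.454), 0.70 in Nemo/TRAIL dKO (adjusted p = 0.0839) and 0.63 in Nemo/TNFR1 dKO (adjusted p = 0.0741). The mean of Mgst1, another membrane-bound member, was within 0.09 of WT in every group.

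A further 12 probe sets listed several symbols with a transferase among them and were not counted as members. Of these, 4 were called higher in each comparison with WT, and 0 were called lower. All 4 carry the same set of alpha-class glutathione transferase symbols, so no single gene can be named. They differed from WT by 1.58 to 1.86 in Nemo KO livers, 1.76 to 2.06 in Nemo/TRAIL dKO livers and 1.90 to 2.18 in Nemo/TNFR1 dKO. Probe sets that share symbols may measure the same transcripts and are not separate observations.

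The sulfotransferases held the largest decreases. Sult5a1 had 7.32, 7.39 and 6.33 in Nemo KO livers, 7.10 and 6.89 in Nemo/TRAIL dKO livers and 7.50, 7.07 and 7.38 in Nemo/TNFR1 dKO livers, against 9.72, 8.32 and 9.44 in WT livers. WT replicate 2 was the lowest WT array and still lay above every Nemo-deficient array. Sult5a1 was 4.43-fold lower in Nemo KO than in WT (difference -2.15 ± 0.37, adjusted p = 0.00668), and the differences were -2.16 ± 0.41 in Nemo/TRAIL dKO (adjusted p = 0.0129) and -1.84 ± 0.37 in Nemo/TNFR1 dKO (adjusted p = 0.0138). The Nemo KO call held without any 1 array. The Nemo/TRAIL dKO call was lost without either array of that group (adjusted p up to 0.0812) and the Nemo/TNFR1 dKO call without its replicate 2 (adjusted p = 0.0569).

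Sult2a8, which sulfates bile acids in mouse liver, was lower in all 3 Nemo-deficient groups. It had 10.80, 10.32 and 10.07 in Nemo KO livers, 10.22 and 10.56 in Nemo/TRAIL dKO livers and 10.89, 10.38 and 10.45 in Nemo/TNFR1 dKO livers, against 11.66, 11.67 and 11.82 in WT livers. The groups with and without hepatocyte Nemo did not overlap. The differences from WT were -1.32 ± 0.19 in Nemo KO (adjusted p = 0.00309), -1.33 ± 0.22 in Nemo/TRAIL dKO (adjusted p = 0.00641) and -1.14 ± 0.19 in Nemo/TNFR1 dKO (adjusted p = 0.00601). Of these calls, that of Nemo/TRAIL dKO was lost without its replicate 1 (adjusted p = 0.0721).

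Sult1b1, an enzyme of thyroid hormone sulfation, was called only in Nemo KO against WT, and its difference between the Nemo-deficient groups passed no test. It had 8.15, 8.07 and 8.00 in Nemo KO livers, 8.04 and 8.47 in Nemo/TRAIL dKO livers and 8.65, 8.37 and 8.23 in Nemo/TNFR1 dKO livers, against 8.87, 8.47 and 8.68 in WT livers. Both double knockouts reached into the WT range. The differences from WT were -0.60 ± 0.15 in Nemo KO (adjusted p = 0.0329), -0.41 in Nemo/TRAIL dKO (adjusted p = 0.179) and -0.26 in Nemo/TNFR1 dKO (adjusted p = 0.34). The Nemo KO call was lost without WT replicate 1 or 3 or any Nemo KO array (adjusted p up to 0.108).

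Sult1e1, the estrogen sulfotransferase, was the only sulfotransferase called higher. It had 4.72, 5.33 and 6.34 in Nemo KO livers, 4.80 and 4.42 in Nemo/TRAIL dKO livers and 5.93, 4.48 and 5.07 in Nemo/TNFR1 dKO livers, against 3.79, 3.90 and 3.66 in WT livers. Every Nemo-deficient array lay above the WT arrays, at values that varied more within groups than those of most probe sets. It was 3.20-fold higher in Nemo KO than in WT (difference 1.68 ± 0.42, adjusted p = 0.0369), and the differences of 0.83 in Nemo/TRAIL dKO (adjusted p = 0.363) and 1.37 in Nemo/TNFR1 dKO (adjusted p = 0.0791) were not called. The Nemo KO call was lost without any of 8 arrays (each WT array, Nemo KO replicate 2 or 3, either Nemo/TRAIL dKO array, or Nemo/TNFR1 dKO replicate 3), with an adjusted p of at most 0.102.

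Of the other 12 sulfotransferases 0 were called against WT. Sult1a1, the phenol sulfotransferase, differed from WT by 0.07 in Nemo KO (adjusted p = 0.835), 0.34 in Nemo/TRAIL dKO (adjusted p = 0.368) and 0.42 in Nemo/TNFR1 dKO (adjusted p = 0.177). Sult1c2 differed by -0.55 (adjusted p = 0.183), -0.80 (adjusted p = 0.106) and -0.34 (adjusted p = 0.436) in the same order. Neither passed the adjusted test, although the arrays of Sult1c2 in Nemo/TRAIL dKO and of Sult1a1 in Nemo/TNFR1 dKO did not overlap those of WT. The 10 sulfotransferases below the median signal, Sult1e1 apart, differed from WT by at most 0.21 in any group.

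Differences of the 10 glucuronosyltransferases, all Ugt2 or Ugt3 genes, were mostly small and below 0. Their difference from WT was below 0 in 8 of 10 genes in Nemo KO livers, 9 of 10 in Nemo/TRAIL dKO livers and 9 of 10 in Nemo/TNFR1 dKO, with medians of -0.14, -0.22 and -0.22. The test called 2 lower in Nemo KO livers, 1 in Nemo/TRAIL dKO livers and 2 in Nemo/TNFR1 dKO, and 0 higher. These are 20%, 10% and 20% of the 10 genes, where 3.21%, 2.64% and 3.35% of all probe sets were called lower. The corresponding medians were -0.02, 0.07 and 0.06 for glutathione transferases and -0.11, -0.02 and -0.08 for sulfotransferases. Over all 19938 genes, 12140 were below 0 in Nemo KO livers, 11992 in Nemo/TRAIL dKO livers and 11136 in Nemo/TNFR1 dKO livers, so most genes lay on that side. These are descriptions of the families, with no test between them.

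Ugt2a3, whose human form conjugates bile acids, was called lower in all 3 groups. It had 11.52, 11.46 and 11.42 in Nemo KO livers, 11.18 and 11.32 in Nemo/TRAIL dKO livers and 11.45, 11.38 and 11.31 in Nemo/TNFR1 dKO livers, against 11.79, 11.86 and 11.85 in WT livers. The differences were small and exceeded the spread within the groups, with no overlap. They were -0.37 ± 0.07 in Nemo KO (adjusted p = 0.00755), -0.59 ± 0.07 in Nemo/TRAIL dKO (adjusted p = 0.00202) and -0.46 ± 0.07 in Nemo/TNFR1 dKO (adjusted p = 0.00289). All 3 calls held without any 1 array.

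Ugt2b1, a member of the UGT2B group that conjugates steroids and drugs, had 12.14, 12.08 and 12.05 in Nemo KO livers, 12.10 and 12.14 in Nemo/TRAIL dKO livers and 11.77, 11.91 and 12.01 in Nemo/TNFR1 dKO livers, against 12.34, 12.35 and 12.51 in WT livers. It was below WT on every Nemo-deficient array and lowest in Nemo/TNFR1 dKO. The differences from WT were -0.31 ± 0.08 in Nemo KO (adjusted p = 0.0356), -0.28 ± 0.09 in Nemo/TRAIL dKO (adjusted p = 0.087) and -0.50 ± 0.08 in Nemo/TNFR1 dKO (adjusted p = 0.00402). The Nemo KO call was lost without any of 9 arrays, with Nemo/TNFR1 dKO replicates 1 and 3 the exceptions (adjusted p up to 0.118), and the Nemo/TNFR1 dKO call held without any 1.

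**Figure D2:**
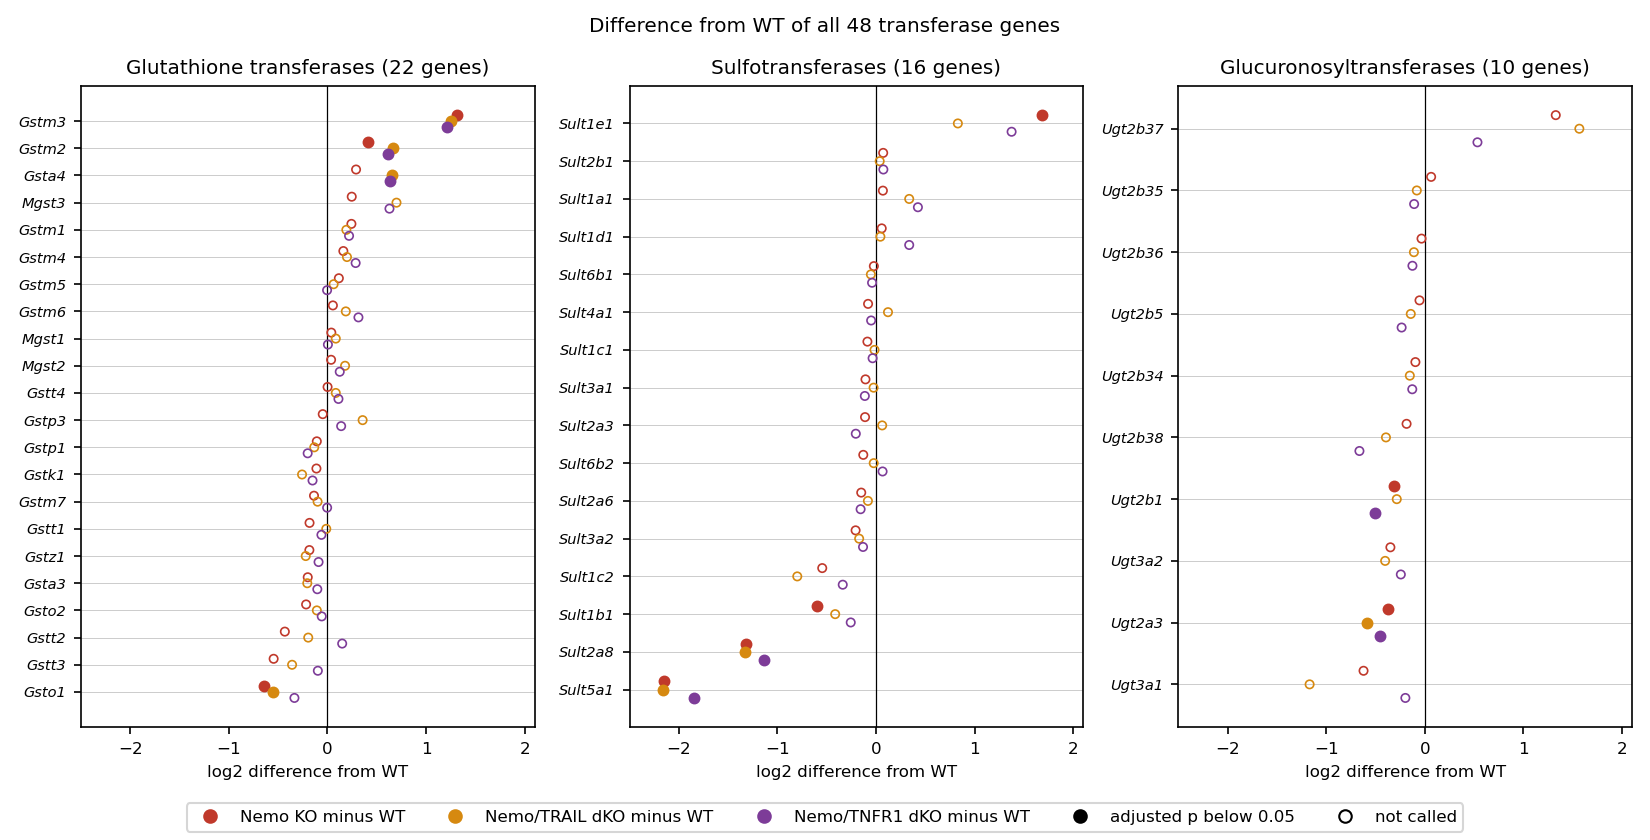
Log2 difference from WT of all 48 transferase genes, with a panel for each family, a row for each gene, and filled symbols for those called at an adjusted p below 0.05. Most genes lie near 0, with Gstm3 at 1.31, Sult5a1 at -2.15 and Sult2a8 at -1.32 in Nemo KO minus WT.

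The called genes of chromosome 5 were mixed in position. Along it the order was Ugt2b34, Ugt2b1, Ugt2b35, Ugt2b36, Ugt2b5, Ugt2b37, Ugt2a3 and Ugt2b38, followed by Sult1b1, Sult1d1 and Sult1e1. Nemo KO differences from WT in that order were -0.10, -0.31, 0.06, -0.03, -0.05, 1.33, -0.37 and -0.19, then -0.60, 0.06 and 1.68. Sult1b1 and Sult1e1, called in opposite directions, lie on either side of Sult1d1 among the members. Genes outside the 3 families were not considered in this order.

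Some members varied so much between arrays of 1 group that a difference of more than 1 log2 unit was not called. The genes below were picked for their spread after it was seen. They include Sult5a1, which was called in every comparison with WT, and Sult1e1, which was called in Nemo KO. The pooled standard deviation within groups was 0.873 for Ugt2b37, above that of 99.7% of all probe sets, 0.74 for Ugt3a1, 0.6 for Sult1e1 and 0.523 for Sult5a1, while the median was 0.15 for the 48 genes and 0.127 for all probe sets. Ugt2b37 had 9.04, 8.86 and 10.27 in Nemo KO livers, 10.06 and 9.20 in Nemo/TRAIL dKO livers and 7.25, 9.47 and 9.06 in Nemo/TNFR1 dKO livers, against 7.84, 7.50 and 8.84 in WT livers. Its difference from WT of 1.33 ± 0.61 in Nemo KO had an adjusted p of 0.217.

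Ugt3a1, whose human form uses N-acetylglucosamine as the sugar, had 10.82, 10.05 and 9.70 in Nemo KO livers, 8.88 and 10.40 in Nemo/TRAIL dKO livers and 10.97, 10.70 and 10.16 in Nemo/TNFR1 dKO livers, against 9.75, 11.34 and 11.34 in WT livers. WT replicate 1 lay below most other arrays. Nemo/TNFR1 dKO replicate 1 was the lowest array for Ugt2b37 and the highest for the theta-class glutathione transferases Gstt3 (9.85) and Gstt2 (9.39). No cause for these single arrays was tested.

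**Figure D3:**
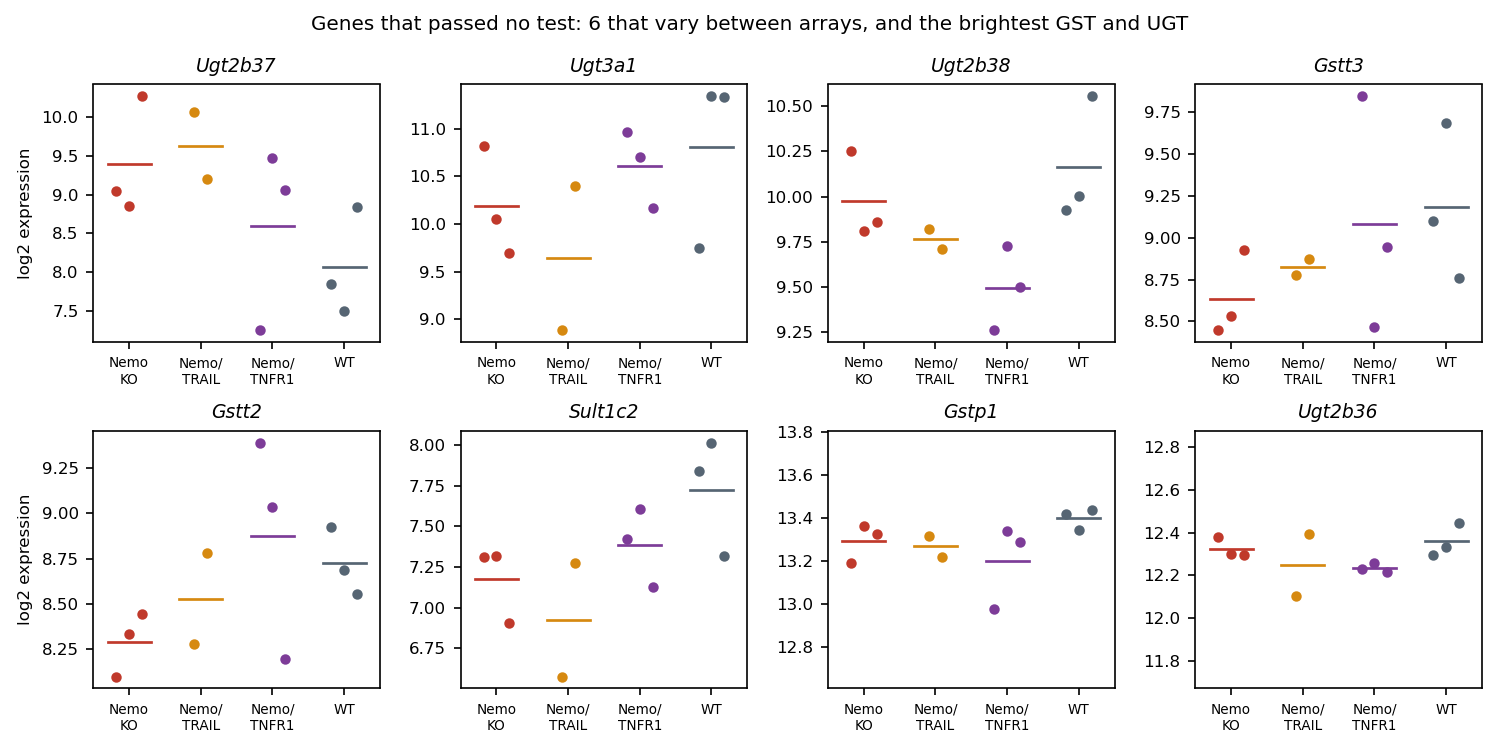
Log2 expression on each array (points, with a bar at the group mean) of 6 transferase genes that vary between arrays and of Gstp1 and Ugt2b36, the brightest glutathione transferase and glucuronosyltransferase; none was called in any comparison. Ugt2b37 ran from 7.25 to 9.47 within Nemo/TNFR1 dKO and Gstp1 from 12.98 to 13.44 over all 11 arrays.

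The double knockouts ask whether loss of TRAIL or TNFR1 alters the expression seen without hepatocyte Nemo. Of the 48 genes 0 were called in Nemo/TRAIL dKO against Nemo KO, where 0.00562% of all probe sets were, 0 in Nemo/TNFR1 dKO against Nemo KO (0.0337%), and 0 in Nemo/TNFR1 dKO against Nemo/TRAIL dKO (0.0478%), by limma with Benjamini-Hochberg adjustment. An unadjusted limma p below 0.05 was reached by 3, 5 and 1 of the 48, beside 1436, 2440 and 1788 of all 35556 probe sets. Both comparisons with Nemo KO share the Nemo KO arrays.

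For Gstm3 the 95% intervals around the difference from Nemo KO were narrow, at -0.27 to 0.16 in Nemo/TRAIL dKO livers and -0.28 to 0.10 in Nemo/TNFR1 dKO. Those of Sult2a8 were wider, at -0.50 to 0.48 and -0.26 to 0.61, and those of Sult5a1 wider still, at -0.94 to 0.91 and -0.53 to 1.13. These unadjusted intervals hold the differences compatible with the values and are not a limit of detection. For Ugt2a3 the intervals were -0.38 to -0.05 and -0.23 to 0.06, for Gsto1 -0.20 to 0.39 and 0.05 to 0.58, and for Ugt2b1 -0.17 to 0.22 and -0.37 to -0.01, where an interval that leaves out 0 is not adjusted for the number of probe sets.

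By family, the gene with the largest difference is given as a value. In Nemo/TRAIL dKO against Nemo KO these were Mgst3 at 0.45, Sult1e1 at -0.85 and Ugt3a1 at -0.55, and in Nemo/TNFR1 dKO against Nemo KO Gstt2 at 0.58, Sult1a1 at 0.36 and Ugt2b37 at -0.79. In Nemo/TNFR1 dKO against Nemo/TRAIL dKO they were Gstt2 at 0.34, Sult1e1 at 0.54 and Ugt2b37 at -1.03. All had adjusted p of at least 0.727. Arrays of the groups did not overlap for 1 gene higher and 4 lower in Nemo/TRAIL dKO against Nemo KO (18.6% of all probe sets, 8.97% higher and 9.62% lower), for 5 higher and 5 lower in Nemo/TNFR1 dKO against Nemo KO (12.4%, 6.60% higher and 5.84% lower), and for 0 higher and 1 lower, Ugt2b1, in Nemo/TNFR1 dKO against Nemo/TRAIL dKO (17.8%, 9.59% higher and 8.21% lower).

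**Figure D4:**
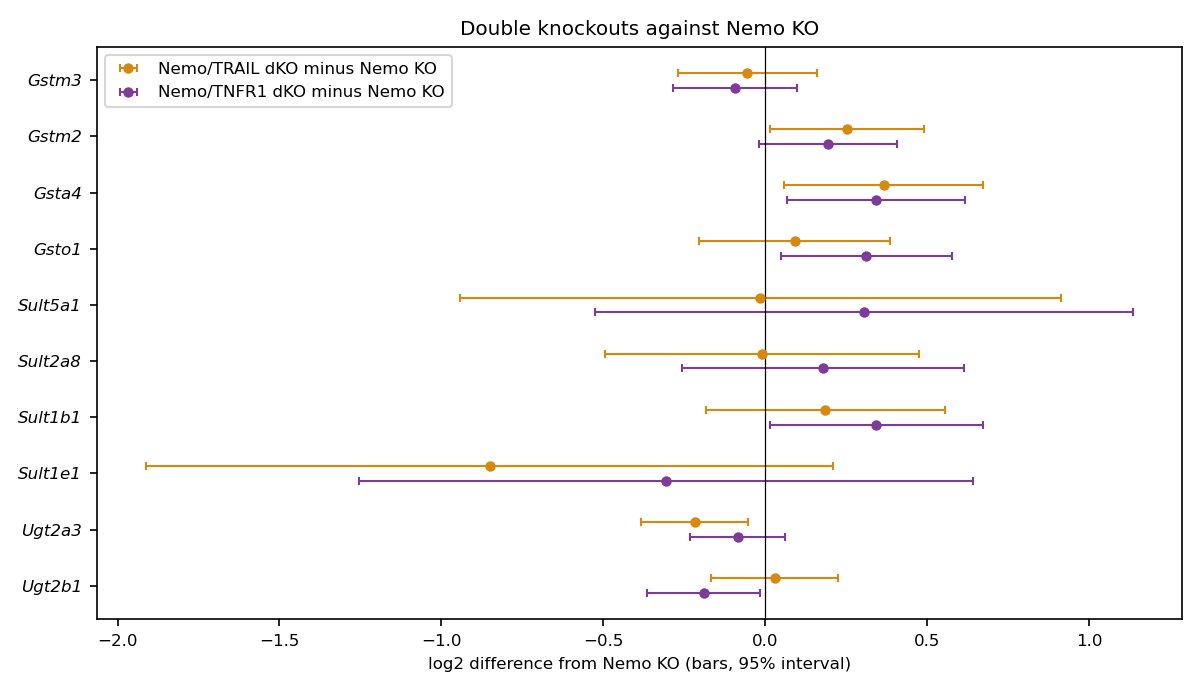
Log2 difference from Nemo KO with its unadjusted 95% interval (bars) for the 10 transferase genes called in at least 1 comparison, drawn once for each double knockout. The interval of Gstm3 is narrow, from -0.27 to 0.16 and from -0.28 to 0.10, and those of Sult5a1 and Sult1e1 are wide, so that for them larger differences are not excluded by the intervals.

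Against WT, the arrays did not overlap for 5 genes higher and 13 lower in Nemo KO (30.3% of all probe sets, 12.8% higher and 17.4% lower), 9 higher and 15 lower in Nemo/TRAIL dKO livers (35.9%, 14.7% higher and 21.1% lower) and 9 higher and 11 lower in Nemo/TNFR1 dKO livers (25.5%, 11.6% higher and 13.9% lower). Of these, the glucuronosyltransferases made up 1 higher and 3 lower, 1 higher and 6 lower, and 0 higher and 6 lower.

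Transcripts around the supply of cofactors were read from lists of other genes of each pathway, which do not measure the cofactors. Over all 19938 genes, 12.6% were called in Nemo KO livers against WT, 1696 higher and 813 lower. In Nemo/TRAIL dKO livers 10.2% were (1372 higher and 665 lower), and in Nemo/TNFR1 dKO livers 12.1% (1630 higher and 775 lower). These shares stand beside the counts of this and the later lists, with no test between them. Of 9 measured genes of UDP-glucuronate metabolism 3 were higher in Nemo KO than in WT and 0 lower, with 3 and 1 in Nemo/TRAIL dKO livers and 4 and 0 in Nemo/TNFR1 dKO livers. Pgm2, a phosphoglucomutase, differed from WT by 0.80 ± 0.11 in Nemo KO (adjusted p = 0.00204), and Ugdh, which makes UDP-glucuronate, by 0.51 ± 0.11 (adjusted p = 0.0173). Gusb, which splits finished glucuronides in lysosomes and not UDP-glucuronate, differed by 0.59 ± 0.08 (adjusted p = 0.00219).

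Of 11 measured genes of glutathione supply 1 was higher and 2 lower in Nemo KO livers, 0 and 0 in Nemo/TRAIL dKO livers and 1 and 2 in Nemo/TNFR1 dKO livers. Gss, glutathione synthetase, rose by 0.87 ± 0.21 in Nemo KO (adjusted p = 0.0287), and Chac1, which degrades glutathione, fell by 0.63 ± 0.13 (adjusted p = 0.016), as did Ggt6, a member of the gamma-glutamyltransferase family, by 0.53 ± 0.11 (adjusted p = 0.0152). In Nemo/TNFR1 dKO the gene called higher was Gsr, glutathione reductase, at 0.48. Of 10 measured genes of sulfate donor supply 0 were called in Nemo KO livers or in Nemo/TRAIL dKO livers, and 1, the sulfite oxidase Suox at -0.49, was lower in Nemo/TNFR1 dKO. In Nemo KO Suox had the largest difference of that list, -0.35 ± 0.12 (adjusted p = 0.114).

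Conjugating enzymes outside the 3 families were called lower only. Of 15 measured, 0 were higher and 5 lower in Nemo KO livers, 0 and 4 in Nemo/TRAIL dKO livers and 0 and 4 in Nemo/TNFR1 dKO livers. In Nemo KO the arylamine acetyltransferase Nat1 differed from WT by -0.89 ± 0.11 (adjusted p = 0.00158), the methyltransferase Inmt by -0.67 ± 0.10 (adjusted p = 0.00374), and the acyl-CoA synthetases Acsm1 and Acsm3 by -0.66 and -0.58. Inmt was not called in Nemo/TNFR1 dKO, at -0.17, and Acsm3 was not in Nemo/TRAIL dKO, at -0.57. The median of this list was -0.30, -0.27 and -0.22 in the 3 comparisons.

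Of 12 genes listed as related to glutathione enzymes but outside the symbol rule, 3 were higher and 2 lower in each comparison with WT. Hpgds, a prostaglandin D synthase of the sigma class of glutathione transferases, was higher in Nemo KO by 1.47 ± 0.16 (adjusted p = 0.000901) and by 1.44 in Nemo/TRAIL dKO livers and 1.42 in Nemo/TNFR1 dKO livers. Alox5ap, of leukotriene synthesis, and the chloride channel protein Clic1 were higher in Nemo KO by 0.68 and 0.59. Macrophages are known to express Hpgds and Alox5ap, and all 8 macrophage markers were higher in Nemo KO as well, whose part in these values was not tested. Glo1, the glyoxalase that uses glutathione to clear methylglyoxal, was lower by -0.69 ± 0.09 (adjusted p = 0.00151).

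Regulators of drug metabolism were mixed, with 2 of 15 measured higher and 2 lower in each comparison with WT. Nfe2l2 had a mean of 11.13 ± 0.10 in Nemo KO livers, against 10.19 ± 0.04 in WT livers (SD, n = 3 each), a difference of 0.94 ± 0.07 (adjusted p = 0.000263), and differed from WT by 0.82 in Nemo/TRAIL dKO livers and 0.96 in Nemo/TNFR1 dKO livers. Its small Maf partner Mafg was lower by -0.37 ± 0.07 in Nemo KO (adjusted p = 0.0108), the aryl hydrocarbon receptor Ahr higher by 0.49 ± 0.13 (adjusted p = 0.0422), and the hepatocyte factor Cebpa lower by -0.67 ± 0.15 (adjusted p = 0.0239). Cebpa was not called in Nemo/TNFR1 dKO, at -0.44. The mRNA level of a regulator does not give its activity.

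Of 10 measured target genes of these regulators 5 were higher and 1 lower in Nemo KO livers, 4 and 1 in Nemo/TRAIL dKO livers and 5 and 1 in Nemo/TNFR1 dKO livers. The carboxylesterase Ces2a was lower in Nemo KO by -1.25 ± 0.12 (adjusted p = 0.000472), while Cyp2b10, a target of the receptor CAR, and Srxn1 and Hmox1, targets of NRF2, were higher by 1.92, 1.32 and 0.98. Of 12 transporters of conjugates 3 were higher and 3 lower in Nemo KO livers, 4 and 2 in Nemo/TRAIL dKO livers and 3 and 2 in Nemo/TNFR1 dKO livers. The uptake carriers Slco1a1 and Slco1b2 were lower in Nemo KO by -1.29 and -0.56, and the export pumps Abcb1a and Abcc1 were higher by 0.79 and 0.56.

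**Figure D5:**
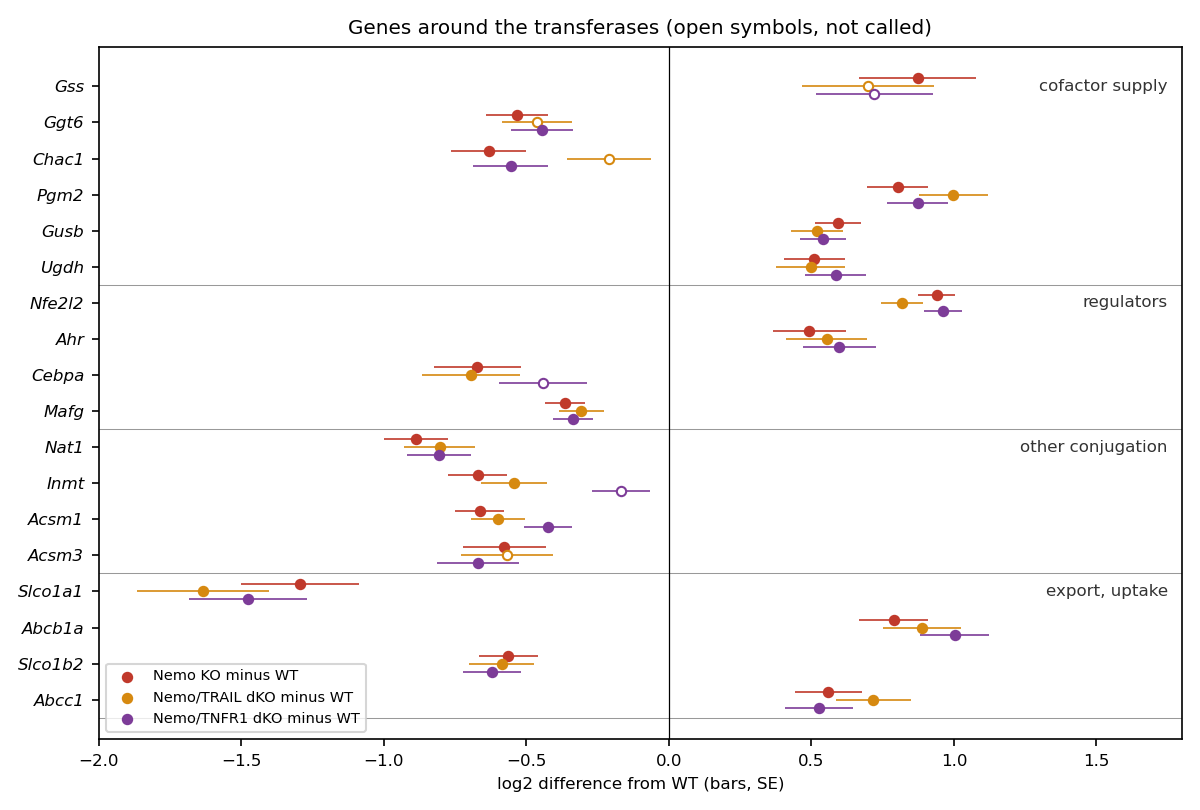
Log2 difference from WT (bars, SE) of named genes around the transferases in each Nemo-deficient group, with filled symbols for those called and open symbols for the rest. Nfe2l2 lies between 0.82 and 0.96 in all 3, and Nat1 between -0.89 and -0.80.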

How the data were processed

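Whole liver RNA was run on 11 Affymetrix MoGene arrays. The values are log2 expression, deposited by the authors after RMA (no version stated) per the submitters' processing notes, and were used without another normalization. Probe sets were named from the platform annotation, of which 21789 carry 1 symbol, 1621 several and 12146 none, and all 48 members matched RefSeq by gene ID. With R 4.3.3 and limma 3.58.1, a model with a mean for each group was fitted to all 11 arrays (residual degrees of freedom 7, prior 2.51), tested two-sided in 6 comparisons. The standard error of a difference had a median of 0.102 (3 against 3 arrays) or 0.114 (3 against 2). The fit was tested on simulated data.

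Every called member is named, uncalled ones as ranges or as the largest of a family, and up to 4 called genes per list. Ugt2b37, Ugt3a1, Gstt2, Gstt3, Gstm1, Mgst1, Mgst3, Sult1a1 and Sult1c2 were also named with their values seen. Members and lists were chosen with earlier results of these data known. Alternatives were a variance trend, quantile normalization, median centring, a filter at the median signal, only the 2 groups compared, a replicate block, the probe set of highest variance, and each array left out.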

Additional observations from a re-analysis of the deposited data

How the results depend on the processing

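The number of transferase genes called depended on single arrays. Counts over all probe sets in the same fits are not given here, so this is not shown to be particular to the transferases. Leaving out each array in turn gave 5 to 9 genes in Nemo KO against WT, with 5 (1 higher and 4 lower) without WT replicate 1, WT replicate 3 or Nemo KO replicate 3, against 9 with all arrays. It gave 4 to 7 in Nemo/TRAIL dKO against WT, with 4 without either Nemo/TRAIL dKO array, where the lone array was assumed to vary like the other groups, and 6 to 8 in Nemo/TNFR1 dKO against WT. Without WT replicate 3, which carried the acinar signal, the counts were 5, 7 and 7, and Gstm2, Sult1b1, Sult1e1 and Ugt2b1 lost their Nemo KO call (adjusted p from 0.0597 to 0.0937). Gstm3, Gsto1, Sult2a8, Sult5a1 and Ugt2a3 kept their Nemo KO call in all 11 of these fits and in the other 7 alternatives. With only the 2 groups compared, Nemo/TRAIL dKO against WT gave 4 (2 higher and 2 lower), from fewer arrays. Other alternatives gave 6 to 10 genes in Nemo KO livers, 4 to 9 in Nemo/TRAIL dKO livers and 7 to 10 in Nemo/TNFR1 dKO against WT, and 0 in each of the other 3 comparisons throughout. Of the values of the 10 named members none reversed while called, 50 lost and 4 gained a call. A replicate block gave 6, 7, 7, 0, 0 and 0 calls. The labels do not state that replicate numbers pair the samples. Deviations from the group means correlated between -0.117 and 0.0435 in the 15 same-number pairs, and between -0.164 and 0.164 in 30 different-number pairs. With groups of 2 or 3 arrays these correlations cannot settle whether the samples are paired.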
